A study of Rattus norvegicus with 23 samples.

Results

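C1qtnf9 and Msmp are a pair of genes for secreted proteins whose RNA was among the most strongly reduced in cultured rat brain endothelial cells after OGD/R (oxygen-glucose deprivation, then reoxygenation). They were taken by name from the deposited count table, as 2 of its 32883 genes, because they stood near the top of the falls in OGD/R against normoxia. Both were among the 13834 genes that passed the filter on low counts. The identifiers are ENSRNOG00000013793 for C1qtnf9 and ENSRNOG00000043023 for Msmp, and each name stood for a single identifier. In the deposited table Msmp carries a provisional protein description, and it was matched to RefSeq's Msmp by its NCBI gene number. The comparison that chose them is given below as a description, with no test.

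RNA sequencing was done on primary rat brain endothelial cells grown in culture inserts together with pericytes and astrocytes, a common in vitro model of the blood-brain barrier. The inserts had OGD/R with DMT and BD1063 (6 libraries, called the BD1063 group), OGD/R with DMT (5, the DMT group), OGD/R alone (6) or normoxia (6). DMT is N,N-dimethyltryptamine, which binds serotonin receptors and the sigma-1 receptor, and BD1063 is an antagonist of sigma receptors. There was no group with BD1063 without DMT and no normoxia group with a compound, and doses, durations and the number of cell isolations are not given in the sources used here. Each library is 1 insert, so p-values measure the spread between inserts, which may be technical. In these lysates fewer cells of a type and less RNA per cell cannot be told apart.

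C1qtnf9 encodes CTRP9, a secreted member of the C1q/TNF-related proteins, which share a collagen-like stalk and a globular C1q domain with adiponectin. In mice it is best known as a product of fat and of the endothelium of the heart, and in mouse and cultured human cells it has been reported to act on blood vessels through the adiponectin receptor AdipoR1 and AMP-activated protein kinase (AMPK). Msmp encodes a small cysteine-rich secreted protein, PC3-secreted microprotein, first found in human prostate cancer cells and reported in human cells to be a ligand of the chemokine receptor CCR2. Receptor protein, secreted protein and signalling were not measured here.

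Gene counts summed to between 12162759 and 18565166 reads per library and held 58.8% to 75.7% of each library's read total. The library labelled OGD/R 3 stood apart, with 58.8% of its read total in genes and 2.94% of its gene counts in noncoding RNA classes, where the other libraries of its group had 0.152% to 0.339%. A low share in genes was also seen in DMT 3 (62.6%) and DMT 5 (68.1%). As a sum, markers of endothelial cells were abundant in every group: the 11 markers found summed to 8982 to 9597 CPM (gene reads scaled to a common library total, after TMM scaling) in the BD1063 group, 9011 to 9756 CPM with DMT, 8304 to 9474 CPM in OGD/R and 8892 to 10040 CPM in normoxia. Not every marker was abundant. Slco1a4 averaged 2.64 CPM in the BD1063 group, 3.37 CPM with DMT, 3.61 CPM in OGD/R and 11.1 CPM in normoxia. Mfsd2a was too low to test.

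C1qtnf9 was a well-expressed gene in normoxia and fell to between 10.3% and 13.5% of that level in the 3 groups with OGD/R. It had a lowest, median and highest level of 5.55, 6.48 and 7.39 CPM in the BD1063 group. With DMT the 5 libraries had 8.38, 7.30, 7.38, 8.24 and 9.81 CPM. In OGD/R the lowest, median and highest were 6.91, 7.90 and 11.4 CPM, and in normoxia 50.6, 63.8 and 71.9 CPM. The 17 libraries exposed to OGD/R thus lay below every normoxia library. Among them, 5 of the 6 BD1063 libraries lay below all libraries with DMT or OGD/R alone, and the DMT and OGD/R ranges overlapped. The lowest normoxia library still had 777 reads of C1qtnf9, and the OGD/R-exposed libraries had 91 to 178.

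Group means of C1qtnf9 were 6.49 ± 0.600 CPM in the BD1063 group (SD, n = 6), 8.22 ± 1.02 CPM with DMT (n = 5), 8.54 ± 1.75 CPM in OGD/R (n = 6) and 63.1 ± 7.90 CPM in normoxia (n = 6). These means are 10.3%, 13.03% and 13.5% of the normoxia mean. The log2 fold change was -3.28 ± 0.12 (SE) in the BD1063 group, -2.94 ± 0.12 with DMT and -2.88 ± 0.11 in OGD/R, each against the same normoxia libraries.

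Msmp was likewise far lower in the 3 OGD/R groups than in normoxia. It had a lowest, median and highest level of 10.3, 13.5 and 18.2 CPM in the BD1063 group. The 5 libraries with DMT had 17.2, 16.7, 19.8, 17.1 and 25.0 CPM. The lowest, median and highest were 14.1, 17.7 and 25.6 CPM in OGD/R, and 96.9, 119.2 and 140.8 CPM in normoxia. Again no OGD/R-exposed library reached the normoxia range, and the 3 OGD/R groups overlapped each other. Reads per library were 174 to 400 in the OGD/R-exposed libraries and 1704 to 2398 in normoxia.

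The means of Msmp were 13.9 ± 2.74 CPM in the BD1063 group, 19.1 ± 3.49 CPM with DMT, 18.6 ± 4.31 CPM in OGD/R and 120.3 ± 16.3 CPM in normoxia, or 11.5%, 15.9% and 15.5% of the normoxia mean in the 3 OGD/R groups. The log2 fold change against normoxia was -3.12 ± 0.15 (SE) in the BD1063 group, -2.65 ± 0.16 with DMT and -2.69 ± 0.15 in OGD/R. As a share of all 13834 genes, 35.5% passed an edgeR adjusted p of 0.05 in OGD/R against normoxia (18.9% as higher and 16.7% as lower), 23.7% with DMT against normoxia and 26.3% in the BD1063 group against normoxia. Since both genes were picked from the first of these contrasts, nothing is read from their standing in it.

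**Figure D1:**
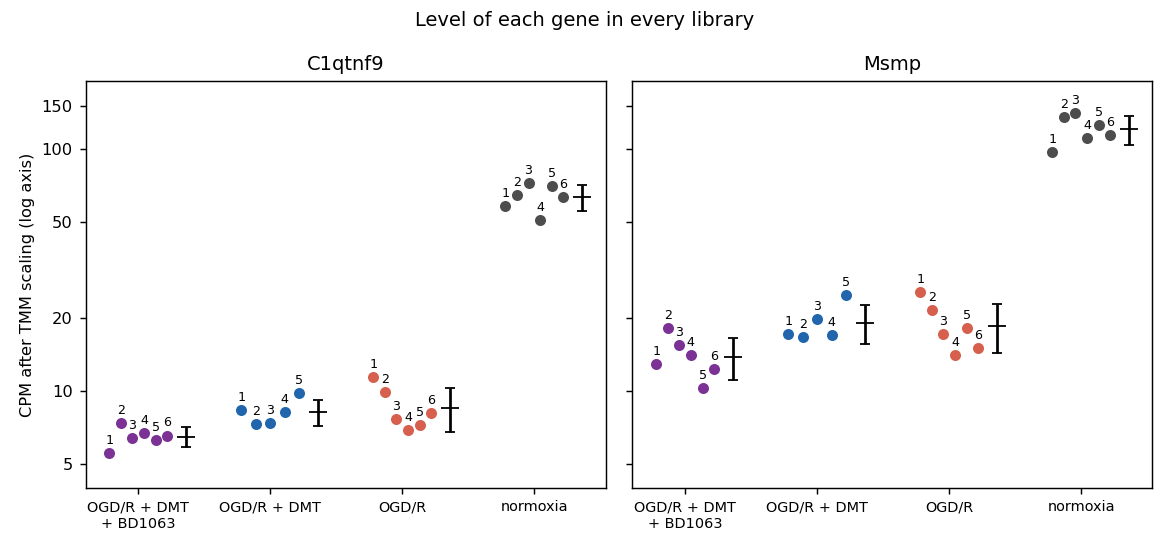
Level of C1qtnf9 (left) and Msmp (right) in every library, in CPM after TMM scaling on a log axis; each point is 1 library with its replicate number, and the bar beside a group is mean ± SD. The normoxia libraries lie at 50.6 CPM or more for C1qtnf9 and 96.9 CPM or more for Msmp, and the libraries of the 3 OGD/R groups lie at or below 11.4 CPM and 25.6 CPM.

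Among the 1841 called falls of genes that averaged 4 CPM or more and had a symbol that is not provisional, C1qtnf9 was ranked 2 and Msmp 3 by size. These ranks restate the choice of the 2 genes and are given as a description only. Lbp, the lipopolysaccharide-binding protein, was ranked 1, with 2.48 ± 1.24 CPM in OGD/R and 19.7 ± 3.13 CPM in normoxia (log2 fold change -2.98 ± 0.24). Depp1, a target of FOXO transcription factors, came next below Msmp, with 7.94 ± 2.41 CPM in OGD/R and 44.4 ± 5.33 CPM in normoxia (log2 fold change -2.48 ± 0.17). C4a, a complement component, followed at -2.40 ± 0.21 and Fos, a subunit of the AP-1 transcription factor, at -2.33 ± 0.38. Fos differed from the others in its spread, with 1.99 ± 0.515 CPM in OGD/R and 10.1 ± 9.83 CPM in normoxia.

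The spread between inserts differed between the groups. The coefficient of variation of C1qtnf9 was 9.23% in the BD1063 group and 12.4% with DMT, where counting error alone gives 9.68% and 9.25%. It was 20.5% in OGD/R and 12.5% in normoxia, where counting error alone gives 8.69% and 3.11%. For Msmp it was 19.8% in the BD1063 group, 18.2% with DMT, 23.1% in OGD/R and 13.6% in normoxia, all above the 2.26% to 6.63% of counting error. The highest OGD/R library was OGD/R 1 and the lowest OGD/R 4 for both genes.

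With DMT, neither gene stood detectably above its level in OGD/R alone. C1qtnf9 had 8.22 ± 1.02 CPM with DMT (SD, n = 5) and 8.54 ± 1.75 CPM in OGD/R (n = 6); its log2 fold change was -0.06 ± 0.12 (SE) with a 95% interval of -0.31 to 0.20 (edgeR quasi-likelihood test, adjusted p = 0.918). Msmp had 19.1 ± 3.49 CPM with DMT and 18.6 ± 4.31 CPM in OGD/R, a log2 fold change of 0.04 ± 0.15 with an interval of -0.28 to 0.35 (adjusted p = 0.961). None of the 5 DMT libraries lay above the highest OGD/R library for either gene, and 0.492% of all genes tested were called in this comparison (0.325% as higher and 0.166% as lower). The miss of the threshold does not show that the levels were equal, but the upper ends of the intervals correspond to 15.6% of the normoxia mean for C1qtnf9 and 19.8% for Msmp.

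The sign of these small differences depended on single libraries. Without OGD/R 1 the log2 fold change of C1qtnf9 was 0.04 (adjusted p = 0.929), and without DMT 5 that of Msmp was -0.08 (adjusted p = 0.767). The OGD/R libraries also entered the choice of the genes, which favours low OGD/R values.

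With DMT and BD1063 together, both genes were lower than in OGD/R alone, but neither difference passed the adjusted threshold. C1qtnf9 had 6.49 ± 0.600 CPM in the BD1063 group and 8.54 ± 1.75 CPM in OGD/R (SD, n = 6 each), a log2 fold change of -0.40 ± 0.12 (SE; 95% interval -0.64 to -0.15; edgeR adjusted p = 0.0512). It was below the OGD/R mean in 6 of 6 BD1063 libraries and below every OGD/R library in 5. Msmp had 13.9 ± 2.74 CPM in the BD1063 group and 18.6 ± 4.31 CPM in OGD/R, a log2 fold change of -0.43 ± 0.15 (interval -0.73 to -0.12; edgeR adjusted p = 0.0828). It was below the OGD/R mean in 6 of 6 BD1063 libraries and below every OGD/R library in 3. In this comparison 5.31% of all genes were called, 1.86% as higher and 3.46% as lower.

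Whether these differences passed depended on the analysis. Over 23 alternatives the adjusted p of C1qtnf9 ran between 0.0185 and 0.222 and passed 0.05 in 6, and that of Msmp ran between 0.0444 and 0.215 and passed in 2, with both log2 fold changes negative throughout. Without OGD/R 4, the lowest OGD/R library for both genes, the adjusted p was 0.0284 for C1qtnf9 and 0.0444 for Msmp, and without OGD/R 1, the highest, it was 0.114 and 0.182.

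The BD1063 group and the DMT group differ by the addition of BD1063. C1qtnf9 had 6.49 ± 0.600 CPM in the BD1063 group (SD, n = 6) and 8.22 ± 1.02 CPM with DMT (n = 5); its log2 fold change was -0.34 ± 0.13 (SE; 95% interval -0.60 to -0.08; edgeR adjusted p = 0.664). Msmp had 13.9 ± 2.74 CPM in the BD1063 group and 19.1 ± 3.49 CPM with DMT, a log2 fold change of -0.46 ± 0.15 (interval -0.78 to -0.15; adjusted p = 0.664). For each gene 5 of the 6 BD1063 libraries lay below every DMT library. In this comparison edgeR called 0 genes (0.0% of those tested), as did DESeq2 and limma voom, while 1005 genes (7.26%) had an unadjusted edgeR p under 0.05.

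With both DMT groups pooled against OGD/R, C1qtnf9 had a log2 fold change of -0.23 ± 0.10 (SE; edgeR adjusted p = 0.213) and was below the OGD/R mean in 10 of 11 libraries. Msmp had -0.19 ± 0.13 (adjusted p = 0.398) and was below it in 9 of 11. Of all genes 3.48% were called in this pooled comparison, and neither gene was among them. Without OGD/R 1, the highest OGD/R library for both genes, the log2 fold change was -0.13 for C1qtnf9 (adjusted p = 0.489) and -0.08 for Msmp (adjusted p = 0.746).

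**Figure D2:**
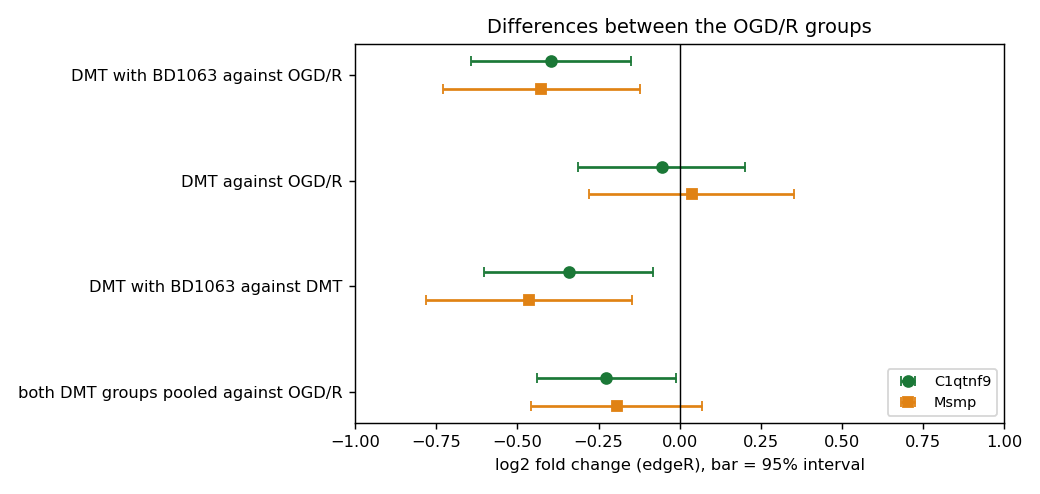
Log2 fold change of C1qtnf9 and Msmp in the 4 comparisons among the OGD/R-exposed groups, with bars for the 95% interval from the edgeR fit. The intervals for DMT against OGD/R span 0, and those for the BD1063 group against OGD/R lie below 0 (-0.64 to -0.15 and -0.73 to -0.12), although neither passed after adjustment over all genes.

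The log2 ratio of C1qtnf9 to Msmp in CPM was -1.08 ± 0.24 in the BD1063 group, -1.21 ± 0.17 with DMT, -1.12 ± 0.15 in OGD/R and -0.93 ± 0.15 in normoxia (mean ± SD over libraries; not corrected for gene length). The normoxia mean was the highest, the ranges of all 4 groups overlapped, and the differences were not tested.

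Within groups, inserts with more C1qtnf9 tended to have more Msmp. Over the 17 OGD/R-exposed libraries, with each group's mean removed, Pearson's r was 0.750 (permutation p = 0.00183) and Spearman's rho 0.608 (permutation p = 0.0189; two-sided, 100000 resamples within groups). This was the only relation between genes across samples that was tested. A correlation within the normoxia libraries was computed without a test and is not given here. Without OGD/R 1 and DMT 5, the 2 libraries farthest from the median of C1qtnf9, r was 0.543 (permutation p = 0.0641) and rho 0.411 (permutation p = 0.162), so it did not hold at 0.05 without those libraries. Without OGD/R 3, OGD/R 5 and DMT 5, r was 0.753 (permutation p = 0.0264) and rho 0.749 (permutation p = 0.0286). Both values of a library share its scaling.

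**Figure D3:**
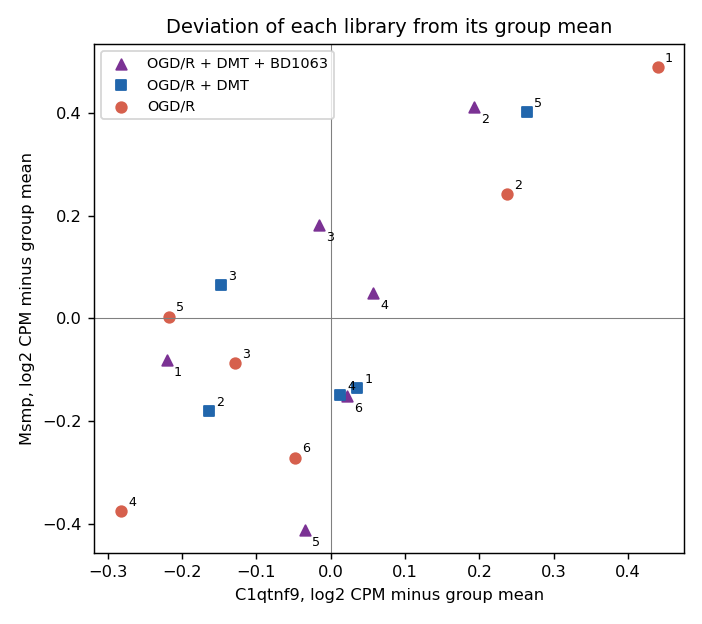
Deviation of each OGD/R-exposed library from its group mean in log2 CPM, C1qtnf9 on the x axis and Msmp on the y axis, with replicate numbers and 1 colour per group. OGD/R 1 (0.44 and 0.49) and DMT 5 (0.26 and 0.40) lie at the upper right, and OGD/R 4 (-0.28 and -0.38) at the lower left.

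Over all 23 libraries, each of the genes was the other's closest match among 9824 genes that averaged 4 CPM or more. Genes without a symbol or with a provisional one were left out here too. Likeness was the root mean square difference between log2(CPM + 0.5) profiles after each gene's own mean was removed, which was 0.181 for the pair against a median of 1.34 over all genes compared with C1qtnf9 and 1.29 with Msmp. This measure favours genes that fell by a similar amount. The next closest to C1qtnf9 were Depp1 (0.401), Lbp (0.419), C4a (0.451) and Pltp (0.477), the phospholipid transfer protein. The next closest to Msmp were Depp1 (0.369), C4a (0.458), Pltp (0.477) and Apoe (0.489), which carries lipid between cells.

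Low levels in all 3 OGD/R groups are part of what makes these profiles alike, so their values are a description. Depp1 had 6.96 ± 1.377 CPM in the BD1063 group, 7.77 ± 1.13 CPM with DMT, 7.94 ± 2.41 CPM in OGD/R and 44.4 ± 5.33 CPM in normoxia. Pltp had 11.4 ± 1.32 CPM, 12.4 ± 1.49 CPM, 14.3 ± 2.12 CPM and 52.5 ± 7.76 CPM in the same 4 groups. None of Depp1, Lbp, C4a, Pltp and Apoe was called by edgeR with DMT against OGD/R, where the smallest adjusted p was that of Lbp (0.354), or in the BD1063 group against OGD/R, where it was that of Pltp (0.0754). Of all genes, 0.492% and 5.31% were called in these comparisons, in that order.

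**Figure D4:**
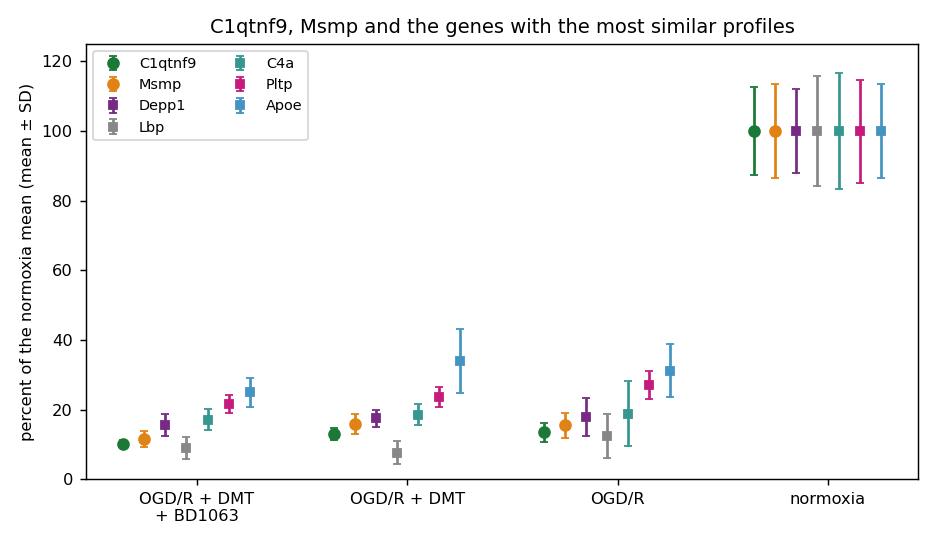
Level of C1qtnf9, Msmp and the genes with the most similar profiles, as a percent of each gene's normoxia mean; points are group means and bars are SD over libraries (n = 6, 5, 6 and 6 from left to right). C1qtnf9 lies at 10.3%, 13.03% and 13.5% and Msmp at 11.5%, 15.9% and 15.5% in the 3 OGD/R groups.

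Of the 3 other tested members of the C1q/TNF-related family, 1 rose and 0 fell in OGD/R against normoxia, where 18.9% of all genes rose and 16.7% fell, so these counts say nothing particular about the family. C1qtnf6 rose to 15.0 ± 1.79 CPM in OGD/R, against 12.6 ± 1.60 CPM in normoxia (log2 fold change 0.24 ± 0.09 SE, edgeR adjusted p = 0.0393). C1qtnf2 had 26.5 ± 2.27 CPM in OGD/R and 23.7 ± 3.08 CPM in normoxia (0.16 ± 0.11, adjusted p = 0.261). C1qtnf5 was close to the filter, with 0.454 ± 0.220 CPM in OGD/R and 0.911 ± 0.342 CPM in normoxia (-0.99 ± 0.40, adjusted p = 0.0588). C1qtnf1, C1qtnf3, C1qtnf4, C1qtnf12 and Adipoq (adiponectin) were too low to test, C1qtnf7 had 0 reads in all 23 libraries, and C1qtnf8 is not analysed here. The difference between C1qtnf9 and these members was not itself tested.

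Among 12 tested genes of other proteins with a C1q domain, 4 fell and 1 rose, beside 16.7% and 18.9% of all genes. Mmrn1 (multimerin-1, a large protein stored in platelets and endothelial cells) fell to 7.38 ± 1.3 CPM in OGD/R, against 28.3 ± 4.82 CPM in normoxia (log2 fold change -1.94 ± 0.14 SE, edgeR adjusted p = 2.81e-10). Col8a1, a chain of the short collagen VIII of vessel walls, fell to 26.7 ± 6.95 CPM in OGD/R, against 40.7 ± 1.98 CPM in normoxia (-0.61 ± 0.14, adjusted p = 0.00169). Emilin2, an elastic fibre protein, fell by 1.20 ± 0.30 on the log2 scale from a low level (adjusted p = 0.00319). Col8a2, the other collagen VIII chain, fell by 1.5 ± 0.38 (adjusted p = 0.00359), and C1qa, a chain of the first complement component, rose by 1.68 ± 0.58 (adjusted p = 0.0270); Col8a2, C1qa and Mmrn2 are named here after their values were seen. Mmrn2, the endothelial multimerin-2, had 373.4 ± 16.2 CPM in OGD/R and 376.3 ± 26.1 CPM in normoxia (-0.01 ± 0.05, adjusted p = 0.877). None of the 12 was called with DMT against OGD/R, where 0.492% of all genes were, or in the BD1063 group against OGD/R, where 5.31% were.

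RNA of AdipoR1, the reported receptor of CTRP9, and of genes of the AMPK pathway was detected in these lysates. Of 15 tested genes of the adiponectin receptor and AMPK list, 7 fell and 3 rose in OGD/R against normoxia (16.7% and 18.9% of all genes did), with a median log2 fold change of -0.09 beside 0.01 over all genes. Adipor1 had 275.8 ± 17.2 CPM in OGD/R and 311.7 ± 11.6 CPM in normoxia (-0.18 ± 0.04 SE, edgeR adjusted p = 0.0033). Adipor2 had 118.7 ± 12.5 CPM in OGD/R and 161.9 ± 19.7 CPM in normoxia (-0.45 ± 0.10, adjusted p = 0.0014). Cdh13, the T-cadherin that binds adiponectin, had 255.6 ± 16.0 CPM in OGD/R and 345.3 ± 22.7 CPM in normoxia (-0.43 ± 0.07, adjusted p = 1.97e-05).

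Prkab2, a regulatory subunit of AMPK, fell by 0.70 ± 0.09 on the log2 scale (edgeR adjusted p = 2.52e-06), and Pparg, a nuclear receptor that controls fat cell genes, fell by 0.77 ± 0.17 (adjusted p = 0.000837). The genes that rose, named after their values were seen, were Camkk2, a kinase that activates AMPK (0.54 ± 0.14, adjusted p = 0.00403), Nos3, the endothelial nitric oxide synthase (0.18 ± 0.04, adjusted p = 0.00311), and Akt1 (0.12 ± 0.05, adjusted p = 0.0454). With DMT against OGD/R 0 of the 15 were called, beside 0.492% of all genes. In the BD1063 group against OGD/R 1 was, beside 5.31% of all genes, so these counts say nothing particular about the list. Prkab2 rose to 12.9 ± 0.735 CPM in the BD1063 group, against 9.95 ± 1.25 CPM in OGD/R (0.37 ± 0.09, edgeR adjusted p = 0.0316).

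The 3 other tested genes of the CCR2 axis list were Ccl2, Ccl7 and Ctcf. None passed the test in any of these comparisons. In OGD/R against normoxia 16.7% of all genes fell and 18.9% rose, so this count says nothing particular about the list. Ccl2, the best-known ligand of CCR2, had 25.96 ± 7.13 CPM in OGD/R and 24.1 ± 3.46 CPM in normoxia (log2 fold change 0.11 ± 0.16 SE, edgeR adjusted p = 0.621). Ccl7, a further CCR2 ligand, had 2.30 ± 0.692 CPM in OGD/R and 2.996 ± 0.823 CPM in normoxia (-0.38 ± 0.24, adjusted p = 0.238). Ctcf, a chromatin insulator protein on the list that is neither a ligand nor a receptor, had 130.1 ± 8.73 CPM in OGD/R. It had 125.2 ± 4.26 CPM in normoxia (0.06 ± 0.05, edgeR adjusted p = 0.436). Msmb, the related prostate microseminoprotein gene, had 0 reads in all 23 libraries, and Ccr2 itself is not analysed here.

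**Figure D5:**
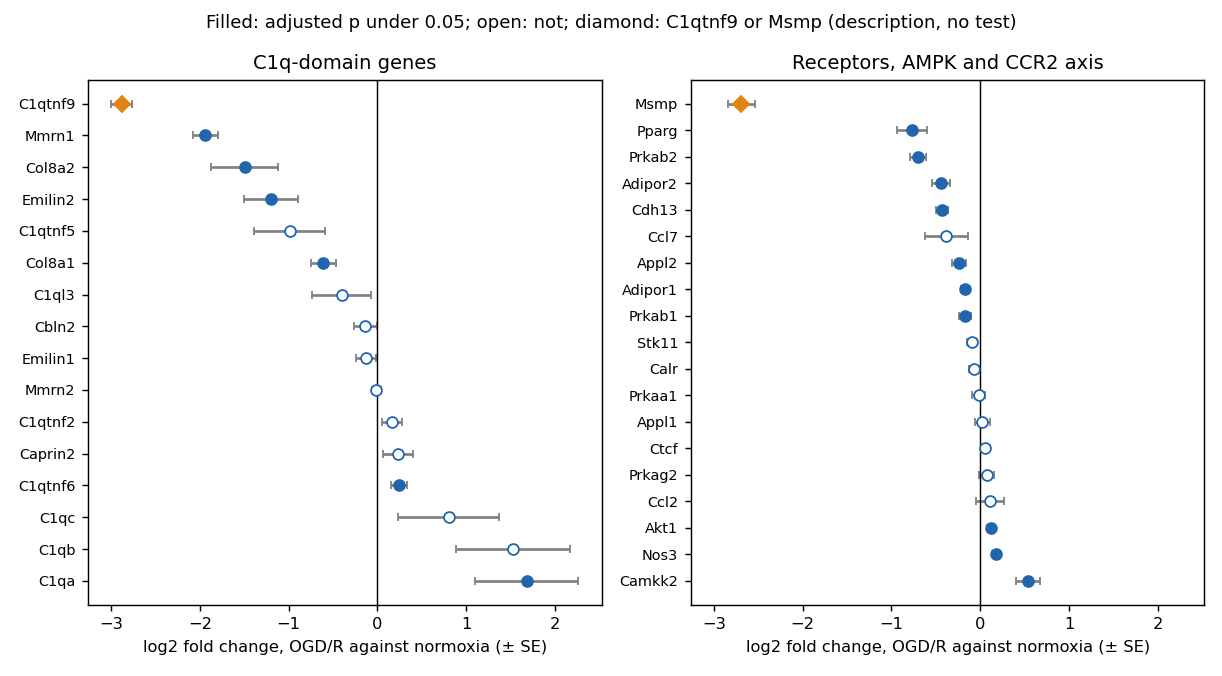
Log2 fold change in OGD/R against normoxia for tested genes of proteins with a C1q domain (left) and of the receptor, AMPK and CCR2 lists (right), with bars for ± SE; filled points have an edgeR adjusted p under 0.05 and diamonds mark C1qtnf9 and Msmp, for which no test is given. C1qtnf9 (-2.88) and Msmp (-2.69) lie at the far left, with Mmrn1 (-1.94) the nearest in its panel and Pparg (-0.77) in the other.

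Among 33 tested genes of other secreted endothelial proteins, 16 fell and 4 rose in OGD/R against normoxia (16.7% and 18.9% of all genes did), with a median log2 fold change of -0.30 beside 0.01 over all genes. Sparcl1, a matrix-associated protein, fell to 845.9 ± 94.2 CPM in OGD/R, against 1751 ± 62.9 CPM in normoxia (edgeR adjusted p = 1.45e-10). Igfbp5, which binds insulin-like growth factors, fell to 8.93 ± 3.83 CPM in OGD/R, against 38.9 ± 7.01 CPM in normoxia (adjusted p = 9.17e-08). Bmp2, a bone morphogenetic protein, fell to 6.69 ± 0.624 CPM in OGD/R, against 11.6 ± 1.07 CPM in normoxia (adjusted p = 9.11e-07). The genes that rose, named after their values were seen, were the chemokines Cxcl12 (0.66 ± 0.16 on the log2 scale) and Cxcl16 (0.47 ± 0.09) and the growth factors Pdgfa (0.48 ± 0.11) and Vegfc (0.32 ± 0.09).

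Some markers of other cell types were called in OGD/R against normoxia, where 16.7% of all genes fell and 18.9% rose. Counts near these shares say nothing particular about a cell type. The 6 fibroblast markers found summed to 104.2 to 395.2 CPM in the BD1063 group, 148.9 to 399.2 CPM with DMT, 136.2 to 419.4 CPM in OGD/R and 425.3 to 945.1 CPM in normoxia, and 3 of the 4 tested fell in OGD/R against normoxia while 0 rose. Fbln1 fell by 0.85 ± 0.09, Col3a1 by 1.44 ± 0.33 and Col1a1 by 1.08 ± 0.33 on the log2 scale (edgeR adjusted p = 1.69e-07, 0.00166 and 0.0149), and Dcn and Lum were too low to test. The 8 pericyte markers summed to 4.59 to 16.2 CPM in the BD1063 group, 7.27 to 13.3 CPM with DMT, 6.47 to 14.6 CPM in OGD/R and 10.1 to 24.8 CPM in normoxia, and of 5 tested 1 fell (Pdgfrb) and 1 rose (Kcnj8). The part of these cells in the falls of C1qtnf9 and Msmp was not tested.

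Adipocyte markers summed to 0.597 to 1.63 CPM in the BD1063 group, 0.811 to 2.61 CPM with DMT, 0.4998 to 2.11 CPM in OGD/R and 2.68 to 5.52 CPM in normoxia. Almost all of this was Cfd (adipsin), the only 1 of the 6 that could be tested, which fell by 1.61 ± 0.29 on the log2 scale (edgeR adjusted p = 0.000148). Adipoq had at most 2 reads in a library, Plin1 at most 1 and Lep 0 in all 23. The 5 choroid plexus markers summed to 0.119 to 1.21 CPM in the BD1063 group, 0.0686 to 1.32 CPM with DMT, 0.0784 to 1.35 CPM in OGD/R and 2.33 to 5.05 CPM in normoxia. Most of this was Aqp1, the only 1 of the 5 that could be tested. It was lower in OGD/R, with 0.530 ± 0.369 CPM against 2.99 ± 1.02 CPM in normoxia. Kcnj13 was at 0 in all libraries. Of 6 tested microglia and leukocyte markers 2 rose (Itgam and C1qa) and 0 fell. Gja1 was the only 1 of the 7 astrocyte markers that could be tested, and it rose. Gfap, Aqp4, Aldh1l1, Slc1a3, Slc1a2 and S100b were too low to test. Of 10 tested endothelial markers 4 fell (Slco1a4, Tie1, Erg and Esam) and 2 rose (Kdr and Flt1). Beside these counts, 16.7% of all genes fell and 18.9% rose in OGD/R against normoxia.

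The neighbours of the genes were measured too, in the gene order of RefSeq's GRCr8 annotation. Msmp lies within the span of Rgp1, a gene of vesicle transport on the opposite strand, and the sources used here do not say if the counting was by strand, so reads of one could be counted for the other. Rgp1 had 20.5 ± 3.56 CPM in OGD/R and 27.2 ± 4.91 CPM in normoxia (log2 fold change -0.41 ± 0.13 SE, edgeR adjusted p = 0.0200). Gba2, a glucosylceramidase gene next to Msmp on its strand, had 53.4 ± 9.22 CPM in OGD/R and 100.9 ± 8.76 CPM in normoxia (-0.92 ± 0.10, adjusted p = 1.91e-07). Beside C1qtnf9, Spata13 had -0.54 ± 0.08 (adjusted p = 1.16e-05) and Mipep 0.16 ± 0.06 (adjusted p = 0.0267).

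The promoter of Msmp is shown with a search for motifs of AP-1, the factor Fos is part of, of FOXO, which acts on Depp1, and of factors of hypoxia, endothelial and cyclic AMP responses. The 250 bases before the RefSeq start lie at chr5:62635772-62636021 on the minus strand of GRCr8, which is not the Rnor_6.0 build of the deposited counts, and are 54.8% G or C. Capitals mark the match to the AP-1 motif.
Msmp promoter: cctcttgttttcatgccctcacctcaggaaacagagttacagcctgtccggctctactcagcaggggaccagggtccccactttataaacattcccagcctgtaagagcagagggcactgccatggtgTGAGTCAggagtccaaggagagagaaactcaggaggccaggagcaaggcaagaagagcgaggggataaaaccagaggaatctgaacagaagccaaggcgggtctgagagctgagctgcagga
The AP-1 motif TGANTCA, which reads alike on both strands, had 1 match, starting 122 bases before the tabled start, and 6.34% of 33469 RefSeq promoters of the same length hold a match. There was no match on either strand to the hypoxia response element core ACGTG (in 16.6% of promoters), the ETS motif CCGGAA (12.6%), the FOXO motif GTAAACA (3.21%) or the CREB motif TGACGTCA (1.59%). The matches describe these letters alone, and no binding was measured. Only these strings were searched, and looser forms of the motifs were not. No promoter is printed for C1qtnf9, since its tabled start lies inside the annotated span of the gene.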

How the data were processed

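RNA of 23 inserts was sequenced from poly-A-enriched, strand-specific libraries with single reads of 75 bases, per the labels' protocols. Tools in the submitters' processing notes, given without their roles, are STAR 2.7.10a, RSEM 1.3.3, cutadapt 3.4, FastQC 0.11.9 and DESeq2 1.38, and the genome build is Rnor_6.0. The authors deposited whole-number counts for 32883 genes. A further deposited table carries the name TPM, but its values are CPM of a larger read total: scaled back, 100.0% of its nonzero values came out within 0.01 of the deposited count, so a count test on those reads repeats the calls on the counts (for DMT against OGD/R, 68 genes). No per-sample column was left unused. Groups came from the sample titles.

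The test on counts was that of edgeR 4.0.16 under R 4.3.3 (glmQLFit, robust, two-sided; TMM scaling; filterByExpr with a minimum count of 10), with all 23 libraries in 1 fit of 4 group means and Benjamini-Hochberg adjustment over 13834 genes at 0.05. Intervals are 95% intervals from the SE and the fit's degrees of freedom. Alternatives were DESeq2 1.42.0, limma 3.58.1, other filters and scaling, deposited CPM with pseudocounts of 1 and 0.1, the replicate number as a block, the groups alone, and libraries left out singly or together. The libraries left out together, DMT 5, OGD/R 5 and OGD/R 3, had the lowest TMM factors (0.941, 0.948 and 0.957). Counting error limits single values, and 91 reads was the lowest count of either gene in any library.

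The genes and the 12 gene lists were chosen with earlier results of these data known. Genes named are C1qtnf9 and Msmp, all tested members of the C1q/TNF-related family and CCR2 axis lists, the 3 members with the smallest p in OGD/R against normoxia of each other list, Adipor1, Adipor2 and Cdh13, the 5 closest profiles of each gene, and the 3 next ranks of fall above and below, among genes of at least 4 CPM. Marker list members beyond this rule are named after their values were seen. Ranks of fall and closest profiles leave out genes without a symbol or with a provisional one, such as LOC and RGD names. Pecam1, Ccr2, Ackr1, C1qtnf8, Prkag1, Sirt1 and Col1a2 had no match by symbol and are not analysed here. Same-numbered libraries of different groups showed correlations of their deviations of -0.423 to 0.64 (median 0.0364 over 33 pairs). Libraries with other numbers showed -0.512 to 0.558 (median -0.00082 over 165 pairs), so the numbers were not taken as pairs.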

Additional observations from a re-analysis of the deposited data

How the results depend on the processing

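For DMT against OGD/R neither gene was called under any of 22 alternatives. Msmp changed sign to -0.073 with limma voom, -0.080 without OGD/R 5 and DMT 5 and -0.11 without these and OGD/R 3, and ran between -0.078 and 0.15 with each library left out (below 0 without OGD/R 4, OGD/R 6 or DMT 5). C1qtnf9 ran between -0.13 and 0.044 with each library left out. In the BD1063 group against OGD/R, C1qtnf9 passed with DESeq2 (-0.39, adjusted p = 0.0310), limma voom (-0.43), at least 50 counts in 5 samples (-0.39), without OGD/R 5 and DMT 5 (-0.43) and without these and OGD/R 3 (-0.48), with -0.45 to -0.30 over libraries left out. The differences were smallest on log2(deposited CPM + 1), at -0.22 for C1qtnf9 (adjusted p = 0.222) and -0.28 for Msmp (adjusted p = 0.204). Msmp passed with limma voom (-0.45, adjusted p = 0.0489), with -0.52 to -0.31 over libraries left out. For both DMT groups pooled, C1qtnf9 passed without OGD/R 3, OGD/R 5 and DMT 5 (-0.34, adjusted p = 0.0492), and was -0.13 on log2(deposited CPM + 1) (adjusted p = 0.538) and -0.28 to -0.13 over libraries left out; Msmp was -0.11 on that scale (adjusted p = 0.652) and -0.26 to -0.08 over libraries left out. C1qtnf9 in the BD1063 group against normoxia was -2.997 on log2(deposited CPM + 1). The causes were not tested.

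The numbers of genes called moved more than the genes described here. For DMT against OGD/R (68) it was 263 with DESeq2, 729 with limma voom, 37 with no filter beyond 1 read, 4 with the groups alone, 4 and 5 on log2 of deposited CPM plus 1 and 0.1, 458 without OGD/R 5 and DMT 5, 453 without these and OGD/R 3, and 26 to 1083 with each library left out (the highest without DMT 5). For the BD1063 group against OGD/R (735) the same settings gave 1291, 1650, 257, 1500, 463 and 386, 1475, 1471 and 76 to 975 (the lowest without BD1063 3 or BD1063 5). For the pooled comparison (481) it was 950 with DESeq2, 1777 with voom, 308 with the groups alone, 73 and 65 on deposited CPM, 1810 and 1724 without the libraries left out together, and 225 to 3142 with each left out (the lowest without OGD/R 2, the highest without DMT 5). Against normoxia, DMT (3284) gave 2103 and 2018 on deposited CPM, and BD1063 (3636) gave 5886 with voom. On log2(deposited CPM + 1) the BD1063 calls against OGD/R were 446 higher and 17 lower, where the main fit had 257 and 478. The median log2 fold change over all genes was 0.0958 in that setting and -0.0148 in the main fit.

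With the replicate number as a block, DMT against OGD/R had 37 calls. In that fit with the block, the BD1063 group against OGD/R gave -0.39 for C1qtnf9 (adjusted p = 0.0577) and -0.42 for Msmp (adjusted p = 0.0714), and the block changed no call of either gene.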

Other observations

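Of the 33 tested genes of other secreted endothelial proteins, 2 were called with DMT against OGD/R (0.492% of all genes were) and 2 in the BD1063 group against OGD/R (5.31% of all genes were). They are named here after their values were seen. Angpt2, a destabilising ligand of the receptor Tie2, rose to 703.6 ± 27.5 CPM in the BD1063 group and 673.4 ± 42.4 CPM with DMT, against 543.2 ± 40.2 CPM in OGD/R (edgeR adjusted p = 0.00243 and 0.0165); normoxia had 696.6 ± 50.7 CPM. Igfbp5 fell further with DMT, to 3.79 ± 1.47 CPM against 8.93 ± 3.83 CPM in OGD/R (log2 fold change -1.23 ± 0.27 SE, edgeR adjusted p = 0.0364), while the BD1063 group had 6.68 ± 1.56 CPM (adjusted p = 0.263 against OGD/R). Igfbp4 fell to 98.5 ± 9.41 CPM in the BD1063 group, against 135.9 ± 19.6 CPM in OGD/R (edgeR adjusted p = 0.0212).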
